A study of Homo sapiens with 21 samples.

Results

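The BCL2 family is the set of proteins that decides at the outer mitochondrial membrane whether a cell enters apoptosis. Its messenger RNAs were followed here through 10 named genes, taken by symbol from the deposited count tables, where all 10 were found among 28008 genes. They are the anti-apoptotic BCL2, BCL2L1, MCL1 and BCL2A1, the effectors BAX and BAK1, and the BH3-only genes BCL2L11, BBC3, PMAIP1 and BID.

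The series holds 21 RNA-seq libraries of 2 human leukaemia cell lines, in 7 groups of 3 libraries. By their labels, 18 are OCI-AML3, a cell line of acute myeloid leukaemia, and 3 are K562, which was derived from chronic myeloid leukaemia in its blast phase. The series' title concerns the susceptibility of cancer cells to stapled peptides, membrane cholesterol and inflammatory signalling. Sequencing batch 1 held untreated parental OCI-AML3, OCI-AML3 given DMSO as vehicle, OCI-AML3 labelled resistant to StAMP (biological replicate 1, "labelled resistant 1" here) and untreated parental K562. Batch 2 held DMSO vehicle, labelled resistant 1 and a second labelled resistant biological replicate ("labelled resistant 2"), all named OCI-AML3. The genotype label reads WT for parental and vehicle libraries and Res for those labelled resistant. StAMP is left unexplained in the labels. Growth, treatment and selection of the cells, and whether a resistant replicate is 1 clone, are not described there. The labels do not say that the 3 libraries of a group came from separate cultures, so a p-value here measures only how these libraries spread, which may be technical. Sample names of vehicle and labelled resistant 1 recur in both batches. Whether these are the same samples sequenced again is not stated, and the test between batches below treats them as independent.

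The profiles of the libraries labelled resistant go against their label as OCI-AML3. Over 10776 genes with the 10 members left out, log2 levels of the batch 1 libraries labelled resistant correlated at r = 0.978 to 0.98 with K562 and at 0.507 to 0.51 with vehicle. In batch 2, labelled resistant 1 correlated at 0.91 to 0.94 and labelled resistant 2 at 0.901 to 0.931 with K562, against 0.553 to 0.577 and 0.555 to 0.573 with the vehicle libraries of their own batch. Summed over 13 erythroid genes, including fetal and embryonic globins and glycophorins, levels lay between 15.1 and 31.1 CPM (counts per mega count of library size, TMM-scaled within a batch) in the OCI-AML3 parental and vehicle libraries. The same sum was 4790 to 5110 CPM in labelled resistant 1 of batch 1, 1660 to 1780 in labelled resistant 1 of batch 2, 993 to 1510 in labelled resistant 2 and 4690 to 4830 in K562. Of these 13 genes, 6 or 7 had 0 counts in all 3 libraries of each parental or vehicle group (HBZ, GYPB, RHAG and HEMGN in each of them), and 0 were absent from any labelled resistant group. Summed over 13 myeloid genes, levels were 2900 to 3180 CPM in parental and vehicle libraries, 140 to 259 in those labelled resistant and 77 to 83.2 in K562. MPO was at 0 in K562, and IRF8 in both labelled resistant groups of batch 2. In each comparison with vehicle, 12 of the 13 were lower and ITGAM was higher (edgeR adjusted p under 0.05). Of all genes, 42.1%, 35.8% and 35.9% were called lower and 44.0%, 39.9% and 40.2% higher in these comparisons. Against K562, 5 of 6 tested were higher in labelled resistant 1 of batch 1 (CD33, CD68, ITGAM, LYZ and SPI1), where 31.3% of all genes were called higher. The rest of the 13 were too low to be tested there. Summed over 5 T and B cell genes, levels were at most 0.595 CPM in parental and vehicle libraries and 4.4 to 17.9 CPM in the labelled resistant and K562 libraries. These values move with every contrast of labelled resistant and vehicle libraries below, and the part of a different cell line in the differences was not tested. Each such contrast rests wholly on these 9 libraries, so it has no value without them. Words such as rose, fell, went or change below compare groups of libraries and do not show that the same cells changed.

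In healthy cells the anti-apoptotic proteins hold the effectors BAX and BAK1 and the BH3-only activators in check. When BH3-only proteins outweigh them, BAX and BAK1 assemble into pores, cytochrome c leaves the mitochondria, and the apoptosome of APAF1 and caspase-9 forms. Blood cell types are known to differ in which anti-apoptotic member they depend on, BCL2L1 being the one associated with late erythroid cells and BCL2 and MCL1 with many myeloid leukaemias.

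All 3 labelled resistant groups had a high level of BCL2L1 and a very low level of BCL2. Across the 3 comparisons with vehicle, BCL2L1 was called higher each time and BCL2, MCL1, BCL2A1, BAX, BCL2L11 and BID lower each time, a call being an adjusted p under 0.05 (edgeR quasi-likelihood test, Benjamini-Hochberg over all genes tested). That is 1 of 10 members higher and 6 of 10 lower in all 3, beside 31.0% and 29.8% of the 14179 genes tested in all 3. BAK1, BBC3 and PMAIP1 did not keep 1 call. In batch 1, labelled resistant 1 had 1 member higher and 9 lower than vehicle, where 44.0% of all genes were called higher and 42.1% lower. In batch 2 the counts were 2 higher and 7 lower for labelled resistant 1, beside 39.9% and 35.8% of all genes, and 2 higher and 6 lower for labelled resistant 2, beside 40.2% and 35.9%. With most genes called, a call alone sets no member apart. The median log2 fold change of the 10 members was -0.83, -0.88 and -0.59 in these comparisons, against 0.02, 0.07 and 0.07 over all genes tested. The labelled resistant groups of batch 2 share their vehicle libraries, so their values are given side by side.

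**Figure D1:**
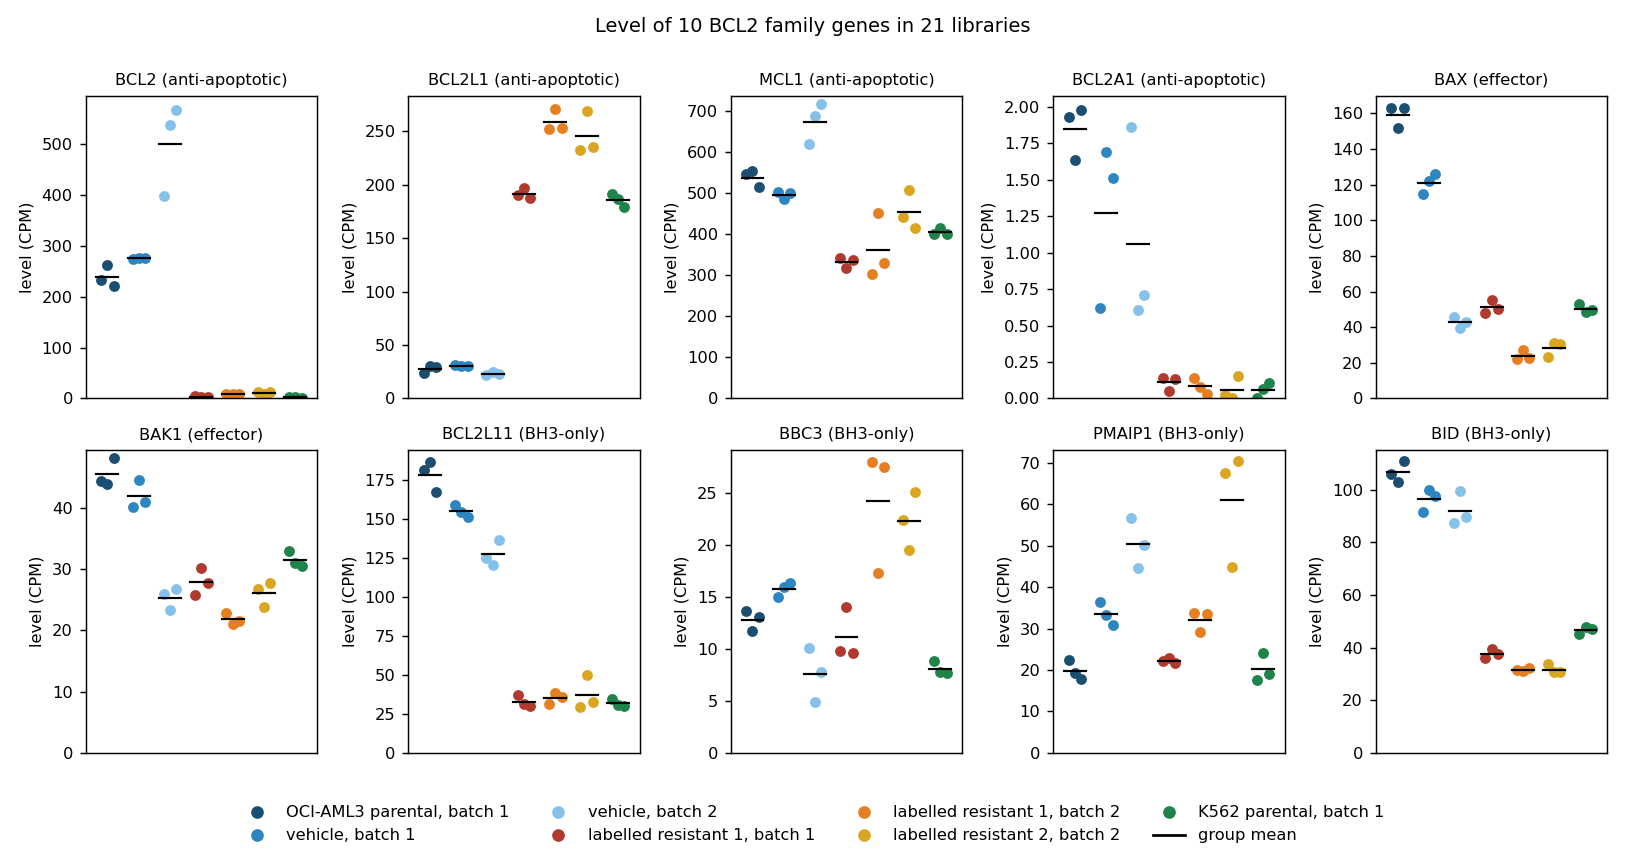
Level of each of the 10 genes in every library, in CPM (counts per mega count of the TMM-scaled library size, scaled within a batch) on a linear axis from 0, with its own scale in each panel. Points are libraries, coloured by group, and black lines are group means of 3. The 9 labelled resistant libraries lie with K562 for BCL2 (1.61 to 13.0 CPM) and BCL2L1 (179 to 271 CPM), apart from the 9 parental and vehicle libraries (222 to 568 and 21.4 to 31.0 CPM).

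BCL2, the founding anti-apoptotic member, lies on chromosome 18 (hg38 chr18:63123346-63320128, minus strand). In batch 1 it was at 275, 276 and 276 CPM in vehicle and at 3.99, 3.38 and 2.75 CPM in the labelled resistant 1 libraries. Batch 2 gave 398, 539 and 568 CPM in vehicle, at 9.12, 8.93 and 8.97 in labelled resistant 1 and at 12.3, 8.96 and 13.0 in labelled resistant 2. Every labelled resistant library was far below every vehicle library, and the groups did not overlap. The log2 fold change was -6.24 ± 0.09 (SE) in batch 1 (edgeR adjusted p = 1.31e-28), a level 75.4 times lower. In batch 2 it was -5.81 ± 0.18 and -5.47 ± 0.18 (edgeR adjusted p = 8.90e-13 and 1.33e-12). In bulk RNA, fewer cells with a transcript and less of it per cell cannot be told apart, here and below. BCL2 was still detected, since 188 counts over 3 libraries stood behind the lowest of these groups.

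BCL2L1 encodes BCL-XL, the anti-apoptotic relative best known from red cell precursors and platelets (chr20:31664452-31723989, minus strand). Its levels in vehicle were 31.0, 30.6 and 30.6 CPM in batch 1, against 190, 197 and 188 CPM in labelled resistant 1. In batch 2, vehicle gave 21.4, 24.4 and 22.4 CPM, labelled resistant 1 gave 252, 271 and 253, and labelled resistant 2 gave 233, 269 and 235. All labelled resistant libraries were higher than all vehicle libraries. The log2 fold change was 2.73 ± 0.07 in batch 1 and 3.50 ± 0.11 and 3.42 ± 0.11 in batch 2 (edgeR adjusted p = 8.15e-24, 1.14e-12 and 1.39e-12), which is 6.62, 11.3 and 10.7 times higher. In the order of group means, on levels scaled within each batch, labelled resistant 1 and 2 of batch 2 (259 ± 10.7 and 245 ± 20.2 CPM, SD, n = 3) overlapped, as did labelled resistant 1 of batch 1 and K562 (192 ± 4.78 and 186 ± 5.92 CPM), while the vehicle and parental groups followed at 22.7 to 30.7 CPM. The annotated non-coding gene ABALON lies on the opposite strand over 41.3% of the exon bases of BCL2L1. The kit keeps strand, but no label or file names the strand setting of the counting. ABALON itself had 5 to 143 counts per group, against 1272 to 33907 for BCL2L1.

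MCL1, a short-lived anti-apoptotic protein on which many myeloid cells rely (chr1:150560895-150579738, minus strand), fell far less. It was at 503, 486 and 499 CPM in vehicle and at 341, 316 and 337 CPM in labelled resistant 1 of batch 1. In batch 2 MCL1 was at 618, 686 and 716 CPM in vehicle, 302, 450 and 329 in labelled resistant 1, and 442, 507 and 414 in labelled resistant 2. The labelled resistant libraries were lower without overlap in each comparison. Its log2 fold change was -0.50 ± 0.05, -0.91 ± 0.15 and -0.58 ± 0.14 (edgeR adjusted p = 8.20e-11, 4.63e-05 and 0.00210). On the opposite strand ADAMTSL4 shares 43 exon bases (0.7%) with MCL1, and it had 2866 counts in vehicle and 9245 in labelled resistant 1 of batch 1. On the same strand ADAMTSL4-AS1 shares 328 exon bases (5.3%), with 5 to 35 counts per group.

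BCL2A1, a target of NF-kappaB that is typical of myeloid cells (chr15:79960892-79971196, minus strand), was scarce everywhere. Its raw counts were 11, 34 and 22 in vehicle and 3, 1 and 2 in labelled resistant 1 of batch 1. In batch 2 they were 87, 23 and 23 in vehicle, 7, 3 and 1 in labelled resistant 1, and 1, 0 and 7 in labelled resistant 2. Every labelled resistant library had fewer counts than every vehicle library of its batch. Relative to the total counts of the groups, vehicle was 10.6 times higher in batch 1 (exact 95% interval 4.61 to 29.8) and 11.1 (6.0 to 22.7) and 16.3 times higher (8.05 to 38.6) in batch 2, intervals that cover counting error only. The edgeR adjusted p was 1.01e-06, 4.03e-04 and 1.47e-04. Single libraries weigh on these sizes. The fitted log2 fold change of labelled resistant 1 in batch 2 was -3.57, and it was -2.85 without replicate 1 of vehicle and -4.19 without replicate 1 of labelled resistant 1. That of labelled resistant 2 was -4.16, and it was -3.44 without replicate 1 of vehicle and -6.28 without replicate 3 of labelled resistant 2. The call was kept each time (edgeR adjusted p up to 0.00373).

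The sequences before the annotated starts of BCL2, BCL2L1 and BCL2A1 are shown because these 3 anti-apoptotic genes had the widest fold changes of the 10 members and not all in 1 direction. Each is the 250 bases before the outermost annotated start (GENCODE annotation), read 5′ to 3′ on the gene's strand from the hg38 reference. The windows are chr18:63320129-63320378 for BCL2, chr20:31723990-31724239 for BCL2L1 and chr15:79971197-79971446 for BCL2A1, all on the minus strand, and none touches an annotated exon. Capitals mark matches, on either strand, to 6 motifs spelled TTCNNNGAA (bound by STAT factors), GATAA (GATA factors), GAGGAAG (PU.1), CCAAT (NF-Y), TATAAA (a core promoter box) and GGGNNNNNCC (a loose NF-kappaB site).
BCL2: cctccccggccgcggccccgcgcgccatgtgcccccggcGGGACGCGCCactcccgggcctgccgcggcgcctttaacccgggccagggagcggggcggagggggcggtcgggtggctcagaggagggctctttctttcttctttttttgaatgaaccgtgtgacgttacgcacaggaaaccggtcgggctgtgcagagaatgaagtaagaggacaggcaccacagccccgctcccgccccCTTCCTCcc
BCL2L1: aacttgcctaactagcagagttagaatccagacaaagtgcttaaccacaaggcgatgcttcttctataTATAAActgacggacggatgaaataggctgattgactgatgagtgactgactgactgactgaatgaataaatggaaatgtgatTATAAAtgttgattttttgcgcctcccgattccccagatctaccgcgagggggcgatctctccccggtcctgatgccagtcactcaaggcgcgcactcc
BCL2A1: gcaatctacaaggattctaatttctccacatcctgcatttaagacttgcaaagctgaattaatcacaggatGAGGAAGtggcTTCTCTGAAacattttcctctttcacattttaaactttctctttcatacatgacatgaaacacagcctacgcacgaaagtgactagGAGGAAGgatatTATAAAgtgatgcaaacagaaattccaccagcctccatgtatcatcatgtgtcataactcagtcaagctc
The BCL2 window is rich in G and C (69.2%) and holds GGGACGCGCC at 211 to 202 bases before the start and GAGGAAG on the opposite strand at 9 to 3 bases before it. The BCL2L1 window (46.8% G and C) holds TATAAA at 2 places, 182 to 177 and 99 to 94 bases before the start, and none of the other motifs. The BCL2A1 window (38.8% G and C) holds GAGGAAG at 179 to 173 and again at 82 to 76, TATAAA at 70 to 65, and TTCTCTGAA at 168 to 160, which reads as a match on both strands. Of 20006 windows of the same length before protein-coding genes, 6.0% hold TTCNNNGAA, 18.6% GATAA, 11.2% GAGGAAG, 59.1% GGGNNNNNCC, 33.3% CCAAT and 10% TATAAA. Among the 10 members 1, 2, 2, 6, 3 and 2 windows hold them. A match is a spelling in a window and was not measured as a binding site in these data.

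The effectors changed less than BCL2 and BCL2L1. BAX (chr19:48954815-48961798, plus strand), which moves from the cytosol to mitochondria to form pores, was at 115, 122 and 126 CPM in vehicle and at 48.1, 55.3 and 49.9 CPM in labelled resistant 1 of batch 1. Values in batch 2 were 45.6, 39.5 and 42.8 CPM in vehicle, 22.2, 27.1 and 22.6 in labelled resistant 1 and 23.3, 30.9 and 30.3 in labelled resistant 2. Labelled resistant libraries were lower without overlap within each batch, but vehicle of batch 2 was also below every labelled resistant library of batch 1, on levels scaled in each batch separately. The log2 fold change was -1.15 ± 0.06, -0.84 ± 0.14 and -0.61 ± 0.14 (edgeR adjusted p = 2.82e-16, 5.91e-05 and 9.34e-04).

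BAK1 (chr6:33572547-33580293, minus strand), the effector that resides on mitochondria, fell in batch 1, where it was at 40.1, 44.6 and 41 CPM in vehicle and at 25.7, 30.2 and 27.8 CPM in labelled resistant 1, without overlap (log2 fold change -0.51 ± 0.07, edgeR adjusted p = 3.24e-07). In batch 2 the values were 25.9, 23.3 and 26.8 CPM in vehicle, 22.8, 21.1 and 21.5 in labelled resistant 1 and 26.8, 23.8 and 27.8 in labelled resistant 2. Those of labelled resistant 1 lay below vehicle but did not pass (-0.23 ± 0.12, edgeR adjusted p = 0.10), and those of labelled resistant 2 overlapped vehicle (0.03 ± 0.12, adjusted p = 0.817). Whether the change in BAK1 differed between batches was tested below and did not pass.

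Among the BH3-only genes, BCL2L11 and BID fell in every comparison with vehicle. BCL2L11 encodes BIM, which binds all anti-apoptotic members and can activate BAX directly (chr2:111119378-111168444, plus strand). It was at 159, 154 and 151 CPM in vehicle and at 36.8, 31.1 and 29.9 CPM in labelled resistant 1 of batch 1. In batch 2 BCL2L11 was at 125, 120 and 136 CPM in vehicle, 31.4, 38.2 and 36.0 in labelled resistant 1 and 29.2, 49.6 and 32.4 in labelled resistant 2. All 9 labelled resistant libraries were below all 6 vehicle libraries. The log2 fold change was -2.15 ± 0.07, -1.86 ± 0.17 and -1.79 ± 0.17 (edgeR adjusted p = 4.45e-21, 1.49e-07 and 2.18e-07). The long non-coding MIR4435-2HG covers 10.8% of the exon bases of BCL2L11 on the opposite strand and moved the other way, with 1046 counts in vehicle and 3806 in labelled resistant 1 of batch 1.

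BID (chr22:17734138-17774770, minus strand), which links caspase-8 to the mitochondria, was at 91.5, 100.0 and 97.4 CPM in vehicle and 36.1, 39.4 and 37.5 CPM in labelled resistant 1 of batch 1. In batch 2 vehicle gave 87.2, 99.3 and 89.5 CPM, labelled resistant 1 gave 31.6, 31.1 and 32.2, and labelled resistant 2 gave 33.6, 30.6 and 30.6. The 2 labelled resistant groups of batch 2 overlapped each other and lay far below vehicle. The log2 fold change was -1.27 ± 0.06, -1.55 ± 0.11 and -1.55 ± 0.11 (edgeR adjusted p = 2.85e-17, 5.20e-09 and 4.94e-09).

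BBC3, which encodes PUMA (chr19:47220822-47232766, minus strand), took opposite directions in the batches. In batch 1 it was at 15.0, 16.0 and 16.4 CPM in vehicle and 9.82, 14 and 9.59 CPM in labelled resistant 1. In batch 2 BBC3 was at 10.1, 4.88 and 7.75 CPM in vehicle, 28.0, 17.3 and 27.5 in labelled resistant 1, and 22.4, 19.5 and 25.1 in labelled resistant 2. The labelled resistant libraries were all lower than vehicle in batch 1 and all higher in batch 2. BBC3 fell by 0.41 ± 0.11 on the log2 scale in batch 1 (edgeR adjusted p = 0.00160) and rose by 1.67 ± 0.24 and 1.54 ± 0.24 in batch 2 (2.35e-05 and 4.59e-05). Vehicle differed between the batches as well, at a mean of 15.8 ± 0.685 CPM in batch 1 and 7.57 ± 2.60 CPM in batch 2 (SD, n = 3), and batch and vehicle culture cannot be told apart there.

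PMAIP1 encodes NOXA, the BH3-only protein that binds MCL1 (chr18:59899996-59904305, plus strand). It was at 36.5, 33.4 and 31.0 CPM in vehicle and 22.2, 23.0 and 21.6 CPM in labelled resistant 1 of batch 1. In batch 2 it was at 56.7, 44.7 and 50.1 CPM in vehicle, 33.9, 29.1 and 33.6 in labelled resistant 1, and 67.5, 44.9 and 70.5 in labelled resistant 2. Labelled resistant 1 was below vehicle in both batches, whereas labelled resistant 2 overlapped vehicle, with 1 of its 3 libraries well below the others. The log2 fold change of labelled resistant 1 was -0.51 ± 0.08 and -0.66 ± 0.16 (edgeR adjusted p = 2.11e-06 and 0.00179), and that of labelled resistant 2 was 0.26 ± 0.16 (adjusted p = 0.149). Without replicate 2 of labelled resistant 2 the latter was 0.44 and was called (adjusted p = 0.00502).

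**Figure D2:**
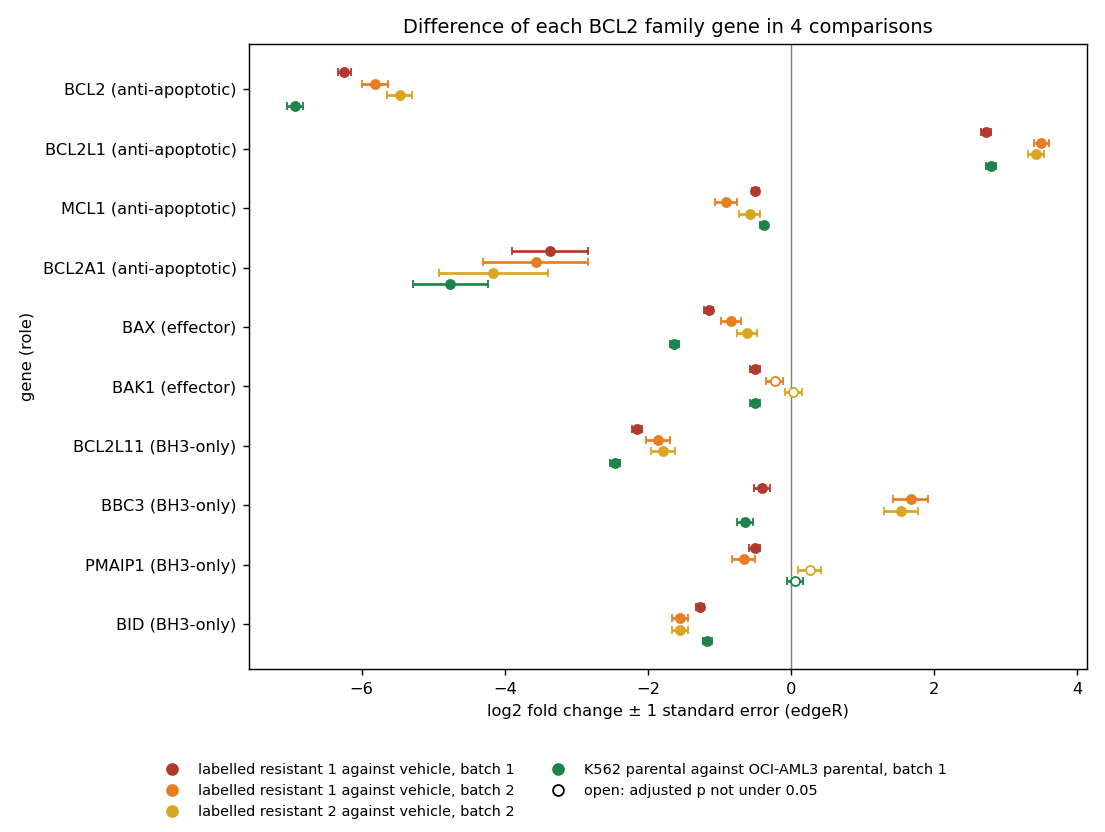
Log2 fold change of the 10 genes (x axis) with 1 standard error either side, for the 3 labelled resistant groups against vehicle of their batch and for K562 parental against OCI-AML3 parental, from the edgeR fits. Filled points have an adjusted p under 0.05 and open points do not. BCL2 lies at -6.93 to -5.47 and BCL2L1 at 2.73 to 3.50 in the 4 comparisons, and BBC3 at -0.64 and -0.41 in the batch 1 comparisons but at 1.67 and 1.54 in those of batch 2.

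To compare genes with each other, levels were divided by exon length (CPM per kilobase of the union of annotated exons). MCL1 led in vehicle of batch 1, at 79.8 ± 1.41 CPM per kb, followed by BAX (46.7 ± 2.23), and BCL2L11, BCL2 and BID lay close together at 22.9 ± 0.641, 21.9 ± 0.0333 and 21.8 ± 1.03, BCL2 and BID differing by less than the spread of BID. BCL2L1 came 8th of the 10 there, at 7.32 ± 0.0548 CPM per kb. Vehicle of batch 2 had another order below MCL1 (108 ± 8.13), with BCL2 2nd at 39.8 ± 7.20, BAX 6th at 16.5 ± 1.17 and BCL2L1 again 8th at 5.42 ± 0.361 CPM per kb. In labelled resistant 1 of batch 1 it came 2nd, at 45.7 ± 1.14, behind MCL1 at 53.2 ± 2.15. In labelled resistant 1 of batch 2 BCL2L1 (61.7 ± 2.55) and MCL1 (57.9 ± 12.7) differed by less than the spread of MCL1. In labelled resistant 2 MCL1 was at 73.0 ± 7.68 and BCL2L1 at 58.5 ± 4.80 CPM per kb. BCL2 was 9th of the 10 genes in all 3 labelled resistant groups and in K562, ahead of BCL2A1 alone.

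The make-up of the 4 anti-apoptotic transcripts does not depend on how libraries are scaled, since it is a share within a library. BCL2L1 made up 6.67, 6.69 and 6.58% of their summed level per kb in vehicle of batch 1 and 45.0, 47.9 and 45.1% in labelled resistant 1. In batch 2 it made up 3.71, 3.65 and 3.20% in vehicle, 54.9, 46.9 and 52.95% in labelled resistant 1, and 43.5, 43.8 and 45.3% in labelled resistant 2. BCL2L1 was thus a minor transcript in every vehicle library, and in the labelled resistant libraries it lay between 43.5 and 54.9%. MCL1 was above it without overlap in labelled resistant 1 of batch 1 (51.8 to 54.6%) and in labelled resistant 2 (53.8 to 55.7%), and overlapped it in labelled resistant 1 of batch 2 (44.3 to 52.5%). In CPM, with no division by length, MCL1 was above BCL2L1 in every labelled resistant library. The mean differences were 39.4, 48.1 and 40.7 percentage points, each with an exact two-sided permutation p of 0.1, the smallest that 3 libraries against 3 can give. MCL1 went from 72.4 ± 0.664% to 53.6 ± 1.58% in batch 1, and from 70.2 ± 1.62% to 47.7 ± 4.27% and 55.1 ± 1.13% in batch 2 (SD, n = 3). BCL2 went from 19.8 ± 0.181% to 0.269 ± 0.0479%, and from 25.6 ± 2.33% to 0.600 ± 0.0765% and 0.695 ± 0.185%. The log2 ratio of BCL2L1 to BCL2 per kb was -1.58 ± 0.01 in vehicle and 7.42 ± 0.26 in labelled resistant 1 of batch 1. In batch 2 it was -2.86 ± 0.23 in vehicle and 6.43 ± 0.07 and 6.03 ± 0.40 in labelled resistant 1 and 2 (exact permutation p = 0.1 in each comparison). In K562 the share of BCL2L1 was 40.4 ± 0.847% and the log2 ratio 8.17 ± 0.30, and in OCI-AML3 parental libraries they were 5.77 ± 0.719% and -1.53 ± 0.18. These are messenger RNA shares, and no protein was measured.

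**Figure D3:**
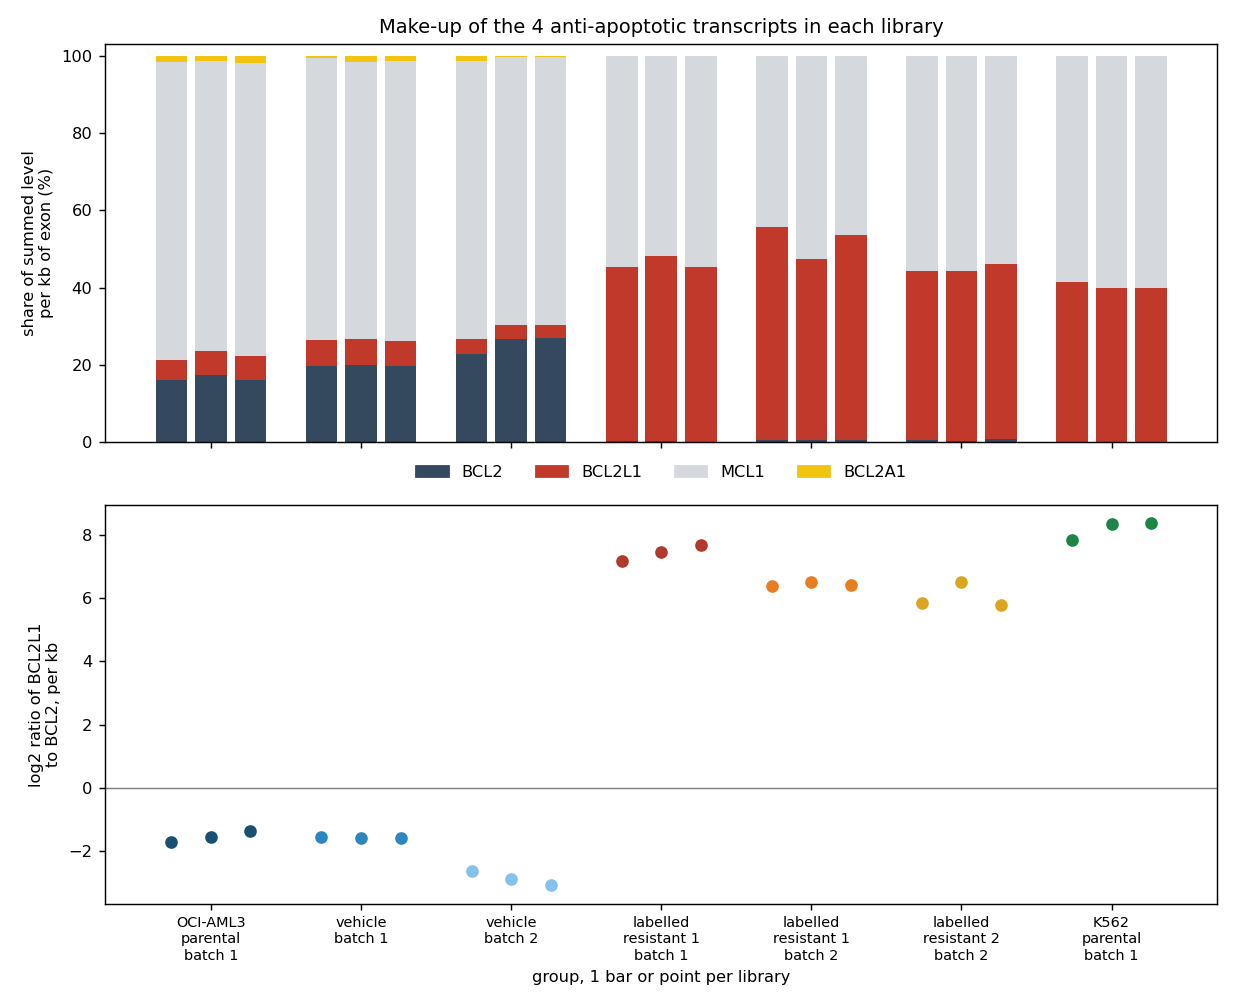
Upper panel: share of each anti-apoptotic gene (percent, y axis) in the summed level per kilobase of exon of BCL2, BCL2L1, MCL1 and BCL2A1, 1 bar per library. Lower panel: log2 ratio of BCL2L1 to BCL2 per kilobase in the same libraries, with a line at 0, where the levels are equal. The 9 parental and vehicle libraries lie between -3.08 and -1.35 in the lower panel, and the 9 labelled resistant libraries between 5.76 and 7.67, near the K562 libraries.

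K562 and OCI-AML3 parental libraries of batch 1 differ by cell line. Compared with OCI-AML3, K562 had 1 of the 10 members higher and 8 lower, where 42.6% of all genes were called higher and 42.5% lower, and a median log2 fold change of -0.90 over the members against 0.00 over all genes. BCL2 was at 2.50, 1.72 and 1.61 CPM in K562 and at 233, 262 and 222 CPM in OCI-AML3 parental libraries (log2 fold change -6.93 ± 0.11, edgeR adjusted p = 1.56e-21). BCL2L1 was at 191, 187 and 179 CPM against 23.7, 29.8 and 29.0 (2.79 ± 0.07, adjusted p = 1.74e-18). For both genes K562 lay on the side of the labelled resistant libraries, without overlap with OCI-AML3, and for BCL2 it lay below all of them. BCL2L11 (-2.46 ± 0.07), BAX (-1.63 ± 0.06), BID (-1.17 ± 0.06), BBC3 (-0.64 ± 0.11), BAK1 (-0.50 ± 0.07) and MCL1 (-0.38 ± 0.05) were lower in K562, with edgeR adjusted p from 1.67e-16 to 2.97e-05 for the last 5 and 8.90e-19 for BCL2L11. BCL2A1 had 3 counts over the K562 libraries and 86 over the OCI-AML3 parental libraries, a ratio of 30.2 (exact 95% interval 9.98 to 149). PMAIP1 overlapped between the lines, at 17.7, 24.0 and 19.1 CPM in K562 and 22.5, 19.2 and 17.9 CPM in OCI-AML3 (0.06 ± 0.11, adjusted p = 0.642).

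Set directly against K562 of the same batch, labelled resistant 1 had 2 of 9 tested members higher and 3 lower, beside 31.3% and 28.5% of all genes, and BCL2A1 was too low to be tested. BCL2 was higher in labelled resistant 1, at 3.99, 3.38 and 2.75 CPM against 2.50, 1.72 and 1.61 (log2 fold change 0.84 ± 0.21, edgeR adjusted p = 0.00171). BBC3 was also higher (0.47 ± 0.13, adjusted p = 0.00488), and MCL1 (-0.29 ± 0.04, 3.70e-06), BID (-0.31 ± 0.06, 1.50e-04) and BAK1 (-0.18 ± 0.07, 0.0409) were lower. BCL2L1 (0.05 ± 0.04, adjusted p = 0.350), BAX (0.02 ± 0.06, 0.760), BCL2L11 (0.05 ± 0.08, 0.621) and PMAIP1 (0.13 ± 0.09, 0.218) overlapped with K562. The greatest of these differences was the 0.84 of BCL2, whose difference from vehicle was -6.24, whereas that of BBC3 (0.47) was no smaller in size than its difference from vehicle (-0.41). The call of BAK1 was lost in 6 of 10 alternatives, among them DESeq2 (-0.19, adjusted p = 0.0778), the replicate block (-0.18, 0.0722) and leaving out replicate 1 (-0.11, 0.234) or 3 (-0.18, 0.0833) of labelled resistant 1 or replicate 1 (-0.16, 0.101) or 3 (-0.20, 0.0521) of K562. That of BBC3 was lost without replicate 2 of labelled resistant 1 (0.26, 0.0689), and PMAIP1 was called without replicate 2 of K562 (0.26, 0.0143).

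The 2 labelled resistant groups of batch 2 differed in 1 member. PMAIP1 was higher in labelled resistant 2 without overlap, at 67.5, 44.9 and 70.5 CPM against 33.9, 29.1 and 33.6 (log2 fold change 0.92 ± 0.16, edgeR adjusted p = 0.00104). No member was lower, and 12.4% and 11.9% of all genes were called higher and lower. BCL2 (0.34 ± 0.16, edgeR adjusted p = 0.136), MCL1 (0.33 ± 0.14, 0.110) and BAK1 (0.26 ± 0.12, 0.134) came nearest among the rest, and each had an unadjusted p under 0.05. BCL2L1 was within the spread of its libraries (-0.08 ± 0.10, adjusted p = 0.615). With the replicate block MCL1 was called (0.35, adjusted p = 0.0240), as it was without replicate 2 of labelled resistant 1 (0.52, 0.00934), and BCL2 was called without replicate 2 of labelled resistant 2 (0.49, 0.0187).

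Vehicle and parental OCI-AML3 libraries of batch 1, both with WT labels, differed by small amounts. Vehicle had 2 members higher and 4 lower, where 18.7% of all genes were called higher and 18.3% lower. PMAIP1 rose most, from 22.5, 19.2 and 17.9 CPM in parental to 36.5, 33.4 and 31.0 CPM in vehicle (log2 fold change 0.73 ± 0.08, edgeR adjusted p = 1.27e-07). BAX fell from 163, 152 and 163 CPM to 115, 122 and 126 (-0.43 ± 0.06, adjusted p = 7.03e-07). Both changes separated the groups without overlap. BCL2L11 (-0.23 ± 0.06, adjusted p = 0.00290), MCL1 (-0.14 ± 0.04, 0.0127) and BID (-0.17 ± 0.05, 0.0132) were lower and BCL2 (0.18 ± 0.06, 0.0146) higher. The calls of BCL2 (0.17, adjusted p = 0.0589) and MCL1 (-0.13, 0.0700) were lost without replicate 1 of parental, MCL1 also without replicate 2 of vehicle (-0.12, 0.0983), and BID without replicate 3 of parental (-0.14, 0.0649) or replicate 1 of vehicle (-0.13, 0.110). BBC3 was not called (0.27 ± 0.11, adjusted p = 0.0657) but was when the labelled resistant libraries were left out of the fit (0.27, 0.0271), when only their replicate 2 was (0.28, 0.0205) or when no low-count filter was used (0.27, 0.0322), and BCL2L1 (0.13 ± 0.08, 0.170) was called without replicate 2 of parental (0.20, 0.0494).

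An interaction term tested whether the change from vehicle to labelled resistant 1 differed between the batches, which differ in depth, with 14.1 to 21.1 M (mega) counts per library in batch 1 and 30.7 to 51.3 M in batch 2. It was called for 4 members, 2 upward and 2 downward, beside 15.0% and 18.2% of all genes, so the count lies near the share of all genes. The difference (batch 2 minus batch 1) was 2.06 ± 0.33 on the log2 scale for BBC3 (edgeR adjusted p = 2.84e-04) and 0.76 ± 0.10 for BCL2L1 (2.02e-05), both of which kept the call in each alternative. For MCL1 it was -0.43 ± 0.16 (adjusted p = 0.0426) and for BID -0.30 ± 0.11 (0.0389), and these calls were lost in 11 and 7 of 16 alternatives, with adjusted p up to 0.105 and 0.102. Members that were not called included BCL2 (0.42 ± 0.19, 0.0959) and BAK1 (0.26 ± 0.13, 0.137), and BCL2 was called without replicate 3 of vehicle in batch 2 (0.51, 0.0414). BAX (0.29 ± 0.13, 0.0919) and BCL2L11 (0.28 ± 0.13, 0.10) were called with RLE normalization (0.36, 0.0410, and 0.34, 0.0453) and with DESeq2 (0.35, 0.0387, and 0.34, 0.0454), and BCL2L11 also without replicate 1 of labelled resistant 1 in batch 1 (0.37, 0.0415) or batch 2 (0.35, 0.0313). With BCL2A1 left out, member levels spread more between replicates in batch 2. The median coefficient of variation was 8.45% there (27 values, 1 per gene and group) against 4.74% in batch 1 (36 values).

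The genes whose pattern over the 21 libraries was most like that of BCL2 were HNMT (Pearson r = 0.9958 of log2(CPM + 1)), FOXN3 (0.9947) and ITGA4 (0.9937), among 10822 genes. For BCL2L1 they were PIM2 (0.9961), ST8SIA6 (0.9957) and CMBL (0.9953). Many genes came close to these, as r was at least 0.99 for 17 genes with BCL2 and 91 with BCL2L1. It was at least 0.95 for 799 and 875 genes. Only genes tested in both batches that averaged at least 10 CPM in their highest group were compared, which left out BCL2A1. Among the 8 other members, BCL2L11 was most like BCL2 (0.949) and BCL2L1 least (-0.942), and for BCL2L1 the extremes were BBC3 (0.386) and BID (-0.976). Since the 21 libraries form separate clusters, parental and vehicle against labelled resistant and K562, and share batches and groups, these values describe mainly that separation.

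Of 13 further BCL2 family genes, 10 were tested in batch 1, where 5 were higher and 3 lower in labelled resistant 1, and 9 in batch 2, where 7 were higher and 2 lower in both labelled resistant groups. The 7 include HRK, which averaged 0 CPM in vehicle and 0.22 and 0.835 CPM in labelled resistant 1 and 2 of batch 2. HRK could be tested there only through its level in the labelled resistant libraries. Its call therefore adds no support, and the batch 2 medians below include it. All genes were called higher and lower at 44.0% and 42.1% in batch 1 and at 39.9% and 35.8% and 40.2% and 35.9% for the 2 groups of batch 2. The median log2 fold change of the list was 0.20, 0.93 and 0.99, beside 0.02, 0.07 and 0.07 over all genes. BCL2L2, the anti-apoptotic BCL-W, rose from 33.7 ± 1.64 to 52.2 ± 0.908 CPM in batch 1 (log2 fold change 0.72 ± 0.07) and from 19.8 ± 1.54 to 61.2 ± 14.4 and 44.2 ± 8.28 CPM in batch 2 (1.62 ± 0.18 and 1.15 ± 0.18). The mitophagy receptor BNIP3 rose in each comparison (1.16 ± 0.07, 0.93 ± 0.11 and 0.99 ± 0.11). BOK, a BAX-like effector, was also higher, but from a level of under 0.2 CPM to at most 3.55 ± 0.674 CPM. BMF, a BH3-only gene, fell by 1.24 ± 0.11, 0.49 ± 0.20 and 1.04 ± 0.20 on the log2 scale, with edgeR adjusted p up to 0.0347 for these 4 genes. All 4 kept 1 direction in the 3 comparisons with vehicle. In K562 against OCI-AML3 parental libraries, BOK (4.31 ± 0.48), BNIP3 (1.19 ± 0.07) and BMF (-2.39 ± 0.18) had that same direction. BCL2L2 was instead lower in K562 (-0.16 ± 0.07, edgeR adjusted p = 0.0416).

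Downstream of the family, 13 genes of mitochondrial apoptosis were tested. In labelled resistant 1 of batch 1 8 were higher and 4 lower, in labelled resistant 1 of batch 2 8 were higher and 3 lower, and in labelled resistant 2 9 were higher and 3 lower. Of all genes, 44.0% and 42.1%, 39.9% and 35.8%, and 40.2% and 35.9% were called higher and lower there. The medians of the list were 0.50, 0.41 and 0.63 on the log2 scale, beside 0.02, 0.07 and 0.07 over all genes. CASP9, the initiator caspase of the apoptosome, rose by 2.03 ± 0.10, 1.90 ± 0.14 and 2.08 ± 0.14 on the log2 scale. The effector caspase gene CASP6 rose by 2.39 ± 0.10, 3.12 ± 0.16 and 2.81 ± 0.16, and CYCS, which encodes cytochrome c, by 1.62 ± 0.05, 0.87 ± 0.12 and 0.96 ± 0.12. APAF1, the scaffold of the apoptosome, went the other way, from 198 ± 8.87 to 62.8 ± 3.54 CPM in batch 1 and from 167 ± 10.9 to 68.5 ± 8.01 and 59.7 ± 6.97 CPM in batch 2. K562 differed from OCI-AML3 parental libraries in the same directions. Its log2 fold change was 2.11 ± 0.10 for CASP9, 2.31 ± 0.09 for CASP6, 1.41 ± 0.06 for CYCS and -2.29 ± 0.07 for APAF1.

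Of 23 regulators of the family, 7 were higher and 13 lower in labelled resistant 1 of batch 1, 6 higher and 10 lower in batch 2, and 8 higher and 9 lower in labelled resistant 2 (medians -0.41, -0.18 and -0.02, beside 0.02, 0.07 and 0.07 over all genes). The shares of all genes called higher and lower were again 44.0% and 42.1%, 39.9% and 35.8%, and 40.2% and 35.9%. STAT5A, a transcription factor known to drive BCL2L1 in erythroid cells, went from 2.28 ± 0.381 to 411 ± 15.9 CPM in batch 1, where it was at 552 ± 9.37 CPM in K562. PIM1, a kinase gene that STAT5 is known to activate, went from 7.45 ± 0.944 to 557 ± 15.3 CPM. RELB, an NF-kappaB subunit, fell from 15.5 ± 1.12 to 0.702 ± 0.285 CPM in batch 1 and from 8.13 ± 0.466 to 1.51 ± 0.56 and 2.91 ± 1.54 CPM in batch 2. In K562 against OCI-AML3 parental libraries the log2 fold change was 5.52 ± 0.07 for PIM1 and -4.52 ± 0.22 for RELB. CDKN1A, a cell cycle inhibitor, was lower in labelled resistant 1 of batch 1 (-1.99 ± 0.08, edgeR adjusted p = 1.55e-18) and higher in labelled resistant 2 (2.02 ± 0.21, 6.51e-07). In labelled resistant 1 of batch 2 it was not called (0.32 ± 0.21, 0.176). Its interaction between the batches was 2.29 ± 0.23 (edgeR adjusted p = 2.02e-06). In labelled resistant 2 against labelled resistant 1 of batch 2, 5 of the 23 regulators were higher and 4 lower. Of all genes, 12.4% were called higher and 11.9% lower there. CDKN1A was among the regulators that were higher (1.71 ± 0.21), and MDM2 was not called (-0.02 ± 0.13).

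**Figure D4:**
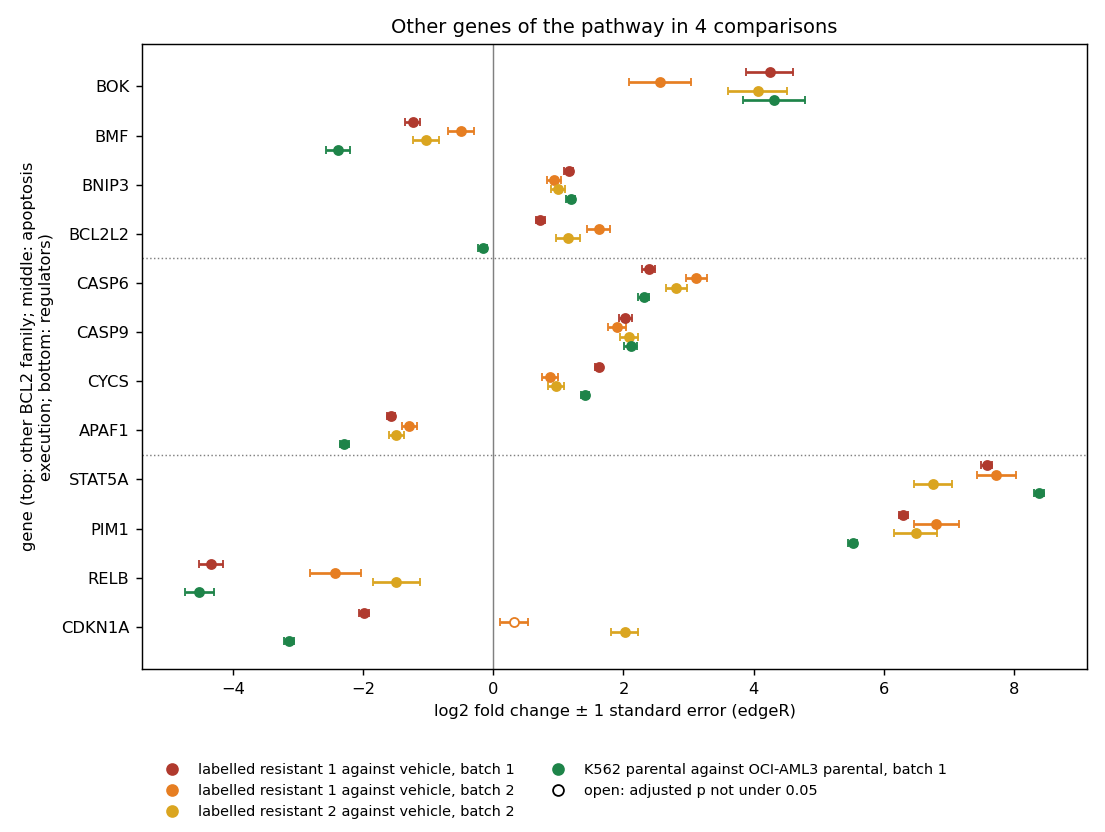
Log2 fold change (x axis) with 1 standard error either side of genes named from the 3 further lists, for the same 4 comparisons. Dotted lines separate the lists, filled points have an edgeR adjusted p under 0.05 and open points do not. STAT5A (6.76 to 8.39) and PIM1 (5.52 to 6.81) lie far to the right in all 4 comparisons. CDKN1A lies at -1.99 and 0.32 (open) for labelled resistant 1 of batch 1 and 2, at 2.02 for labelled resistant 2 and at -3.14 for K562.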

How the data were processed

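The authors deposited raw gene counts per symbol, 1 table per sequencing batch, without normalization. The submitters' processing notes name hg38, the VIPER workflow and DESeq2 1.22.1. The labels leave out the aligner version, annotation and strand setting, which are thus not given in the sources used here. All values were whole numbers, and 0 columns were left without a sample. Genes were tested with edgeR 4.0.16 under R 4.3.3 (TMM, filterByExpr, robust quasi-likelihood F tests, two-sided, Benjamini-Hochberg over all genes tested), with batch 1 OCI-AML3 groups fitted together, batch 2 groups together, the 2 K562 comparisons on 6 libraries each, and the interaction on 12. CPM are scaled by TMM within a batch. Gene lengths, positions and starts came from the GENCODE annotation of hg38. The fits were also run on simulated counts in which few genes changed, equally in both directions. In these data most genes were called, so that run cannot tell how the scaling behaves here. Total counts were 14.1 to 21.1 M in batch 1 and 30.7 to 51.3 M in batch 2. Replicates differed by more than counting noise in every group, so none was merged.

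The 10 members, the gene lists and the tests were chosen with earlier results of these data known. From each list, up to 4 genes that passed in all 3 comparisons with vehicle in 1 direction were named, by their change in batch 1, plus those called with opposite signs; some of these are not reported here. In batch 2, same-numbered libraries deviated together for vehicle and labelled resistant 1 (r = 0.218 to 0.273). Values were 0.164 to 0.393 for both labelled resistant groups and 0.0982 to 0.216 for vehicle and labelled resistant 2. However, replicate 3 of labelled resistant 2 and replicate 1 of labelled resistant 1 in batch 2, with different numbers, gave 0.331. Whether sample numbers pair the libraries is thus not settled. The main tests did not pair them, so their p-values are unpaired. Sample numbers entered only through the replicate block, as an alternative. Alternatives were RLE normalization, no low-count filter, DESeq2 1.42.0, a replicate block, fits of only the groups compared, and leaving out each library.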

Additional observations from a re-analysis of the deposited data

Results flagged for a closer look

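The change from vehicle to labelled resistant 1 differed between the 2 batches for 4 of the 10 members by an edgeR interaction test, 2 upward and 2 downward, where 15.0% and 18.2% of all genes were called. The count lies near that share and does not set the members apart as a group. The difference, batch 2 minus batch 1 on the log2 scale, was 2.06 for BBC3, which fell in batch 1 and rose in batch 2. It was 0.76 for BCL2L1, which rose in both batches. For MCL1 and BID, which fell in both, it was -0.43 and -0.30, and these calls were lost in 11 and 7 of 16 alternatives, among them RLE normalization (-0.37, edgeR adjusted p = 0.0798, and -0.23, 0.102).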

How the results depend on the processing

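Of 52 called results of a member in a comparison, 7 lost the call in at least 1 alternative. Of 27 that were not called, 9 were called in at least 1 alternative. None of the 52 changed sign, but 8 of the 27 did. Leaving out 1 library moved these 8, on the log2 scale, over -0.01 to 0.10 for BAK1 in labelled resistant 2 against vehicle, -0.09 to 0.15 for PMAIP1 in K562 against OCI-AML3 and -0.81 to 0.54 for the interaction of BCL2A1. Between labelled resistant 2 and 1 the ranges were -2.71 to 0.03 for BCL2A1, -0.20 to 0.22 for BCL2L11 and -0.05 to 0.02 for BID, which was at 0.00 with RLE normalization and DESeq2. Between labelled resistant 1 and K562 they were -0.04 to 0.07 for BAX and -0.05 to 0.10 for BCL2L11. Without division by gene length, the rise in the share of BCL2L1 was 32.6 percentage points in batch 1 and 39.7 and 32.6 in batch 2. With the longest transcript as length it was 39.5 for labelled resistant 2. Between the labelled resistant groups of batch 2, leaving out 1 library gave 2323 to 4814 genes called, against 3706, and 1 to 2 members, against 1. With the replicate block 2 members were called there. For the interaction, leaving out 1 library gave 2 to 4 members called, against 4. The replicate block changed no other member's call than those of MCL1 and BAK1 given above. BCL2A1, with at most 87 counts per library, had the widest standard errors, 0.53 to 0.76 on the log2 scale in the comparisons with vehicle. The cause of these changes was not tested.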
